A study of Mus musculus with 38 samples.

Results

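Tumours of the kidney from VIM mice were compared with tumours from MYC mice, and the members of the comparison were the 6 tumour libraries that the sample titles give to these genotypes, out of 38 libraries in the series. The VIM group held 3 libraries of 3 mice and the MYC group held 3 libraries of 2 mice, since MYC libraries 2 and 3 came from 1 mouse, so that 5 animals stood behind every value. MYC mice carried Ksp-rtTA and Tet-O-MYC and were kept on doxycycline (Dox), which turns on MYC in cells where the Ksp-cadherin promoter makes the transactivator, that is, in epithelium of the renal tubules. VIM mice carried the same transgenes and the same Dox, together with floxed Vhl alleles that were deleted by a tamoxifen-inducible Cre (KspCreERT2) under the same promoter, and with germline loss of Ink4a/Arf in every tissue. The comparison asks what the added lesions change in tumours that MYC already drives. MYC was shared by both groups, whereas loss of Vhl, loss of Ink4a/Arf, and the Cre with its tamoxifen differed together and cannot be told apart in this comparison. Dox was started in young adult MYC mice, and the strain of the tumour mice and their age when tumours were taken are not given in the sources used here. The other libraries are 3 tumours with MYC and Vhl loss but intact Ink4a/Arf (VM), 5 normal kidneys and 24 libraries of cultured tumour lines. The lines were grown with or without Dox. The normal kidneys are labelled wild type, and their titles begin with B6 or KT. All 5 were treated as 1 group, and whether B6 and KT kidneys differ was not tested. These other libraries serve below as levels beside the comparison, with 1 comparison of lines at the end.

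The von Hippel-Lindau protein is the substrate-recognition part of an E3 ubiquitin ligase that marks the hypoxia-inducible factors HIF1A and EPAS1 (HIF2A) for destruction once the EGLN prolyl hydroxylases have used oxygen to modify them. Without it the factors persist in the presence of oxygen, pair with ARNT, and turn on genes for glycolysis, angiogenesis and adaptation to low oxygen, and loss of VHL is the founding lesion of clear cell renal cell carcinoma. The Ink4a/Arf locus (Cdkn2a) encodes p16INK4A, an inhibitor of CDK4 and CDK6 that holds RB active, and p19ARF, which restrains MDM2 and so stabilises p53. MYC drives ribosome production, nucleotide synthesis and entry into the cell cycle, and when it is overexpressed it can raise ARF.

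HIF binds the core ACGTG or GCGTG, with reverse complements CACGT and CACGC, in the regulatory sequence of its targets. The E-box CACGTG, which MYC binds, contains the letters ACGTG and CACGT, so the 2 motifs overlap. Because the hypoxia and glycolysis genes were the question on Vhl, stretches of promoter are shown for 8 genes described below, with every core on either strand in capitals. Each comes from the 250 bases before a RefSeq transcript start, is written 5′ to 3′ on the strand of the gene, and is placed on GRCm38.p6. The stretches were cut around the core nearest the start, with up to 30 bases on either side, so that each holds a core by choice.
Egln3 (chr12:54204069-54204124, minus strand): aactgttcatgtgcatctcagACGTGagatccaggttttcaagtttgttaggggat
Slc16a3 (chr11:120949023-120949066, plus strand): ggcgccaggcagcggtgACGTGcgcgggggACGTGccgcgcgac
Ldha (chr7:46845740-46845803, plus strand): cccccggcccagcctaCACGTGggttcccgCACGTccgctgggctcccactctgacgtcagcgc
Pdk1 (chr2:71873116-71873180, plus strand): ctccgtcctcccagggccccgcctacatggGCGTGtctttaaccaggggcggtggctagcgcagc
Pgk1 (chrX:106186939-106187003, plus strand): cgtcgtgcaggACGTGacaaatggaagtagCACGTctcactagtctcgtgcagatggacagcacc
Aldoa (chr7:126799346-126799410, minus strand): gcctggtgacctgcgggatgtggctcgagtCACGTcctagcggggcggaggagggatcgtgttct
Eno1 (chr4:150237105-150237169, plus strand): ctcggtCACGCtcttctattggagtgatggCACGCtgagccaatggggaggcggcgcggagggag
P4ha2 (chr11:54100825-54100889, plus strand): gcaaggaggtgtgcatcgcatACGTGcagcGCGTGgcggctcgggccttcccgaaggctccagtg
Among these 8 stretches, the E-box was found only in that of Ldha, where capitals run over 6 letters. A core was found in 27 of the 31 HIF targets outside glycolysis that had a promoter window (87.1%) and in 18 of the 21 glycolysis genes with one (85.7%), beside 57.3% of the 11343 tested genes with a window and 41.5% of all 27025 genes with one. No core was found in the windows of Gbe1, Edn1 and Ftcd, which says only that these letters are not in those windows. The lists were assembled from genes known as HIF targets, so the shares describe the lists and are not a result of the tumour comparison. Among members above in every VIM library, a core was found in 4 of 6 HIF targets (66.7%) and in 8 of 10 glycolysis genes (80%). Whether these shares differ from those of the whole lists was not tested.

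Values are RSEM estimates of the reads of each gene, rescaled by the authors to an upper quartile of 1000 per library, and are called units here. Values in a sentence are given in the order MYC library 1, 2 and 3 and VIM library 1, 2 and 3. Changes are VIM relative to MYC on the log2(units + 1) scale over the 5 animals, followed by the standard error (SE), and adjusted p-values are from limma, Benjamini-Hochberg adjusted over 16246 genes. Fewer cells of a type and less RNA per cell cannot be told apart in such bulk tissue.

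The engineered genes were examined first. Vhl stood at 560, 471 and 468 units in the MYC tumours and at 226, 219 and 312 units in the VIM tumours, so that all VIM libraries were below all MYC libraries. The log2 change was -1.04 ± 0.34, which did not pass the test (adjusted p = 0.288). Levels of Vhl were lower still in VM tumours (40.2 to 79.9 units) and at 612 to 772 units in normal kidney. In cultured VIM cells it was at 8.32 to 18 units, against 433 to 461 units in MYC cells. The values sum reads over the whole gene, and how much of the level in VIM tumours came from undeleted cells was not tested.

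Cdkn2a did not separate the groups. It stood at 108, 2872 and 59.3 units in the MYC tumours and at 33.9, 30.1 and 95.5 units in the VIM tumours, and the log2 change of -3.09 ± 1.13 (adjusted p = 0.315) was -0.78 without MYC library 2. MYC libraries 1 and 3 lay within a few fold of the VIM libraries, whereas MYC library 2, from the same mouse as library 3, was close to the 3392 to 4347 units of VM tumours, in which Ink4a/Arf is intact. Normal kidney held 0 to 3.8 units, MYC cells 3056 to 3306 and VIM cells 24.9 to 34.7. The mouse gene Myc was at 208, 438 and 390 units in MYC and 397, 476 and 340 units in VIM tumours, with overlapping libraries (log2 change 0.45 ± 0.41, adjusted p = 0.604), and all 6 were above the 40.7 to 119 units of normal kidney. Whether reads of the MYC transgene were counted under mouse Myc is not given in the sources used here.

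All 6 libraries held renal epithelium. Cdh16 (Ksp-cadherin), whose promoter drives the transgenes, was at 10230 to 13766 units in MYC and 6526 to 10851 units in VIM tumours, and Pax8, a transcription factor of kidney epithelium, at 2371 to 3547 and 1782 to 4154 units. Markers of differentiated segments were far below normal kidney, with the 23 proximal tubule markers summing to 9286 to 42043 units in the tumours against 869236 to 2116144 units in normal kidney. Estimated depth was 9440000 to 15400000 reads in MYC and 8220000 to 11500000 reads in VIM libraries, so that 3 reads corresponded to 2.8 to 5.65 units, and this covers counting error only. Across genes, log2 values of libraries correlated at 0.919 to 0.940 within MYC, 0.923 to 0.960 within VIM and 0.893 to 0.929 between groups, and the pair from 1 mouse (0.933) was not the closest of the MYC pairs.

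Several libraries stood apart within their group. MYC library 1 was high in macrophage markers, which summed to 36436 units against 9003 to 27699 in the other 5. MYC library 2 was high in fibroblast and collagen genes (40426 against 10379 to 21779 units). VIM library 2 was high in markers of the loop, distal tubule and collecting duct (14286 against 2285 to 8472 units). VIM library 3 was high in adipocyte, muscle and blood markers (7034 against 469 to 2537 units). The part of these other cells in any difference below was not tested.

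Levels also varied with transcript length, which touched many of the differences. Length was taken as the median over the annotated protein-coding transcripts of a gene, short ones included. It may differ from the length of the transcript that the tumours express. VIM library 3 showed this most, with its values relative to the mean of all 6 libraries at a median of 0.505 (log2) for the decile of genes with the shortest transcripts (39 to 862 bases) and -0.707 for the decile with the longest (5008 to 19805 bases). VIM library 1 went the same way (0.339 and -0.38), VIM library 2 did not (-0.0341 and 0.167), and MYC library 2 went the opposite way (-0.345 and 0.582). The median log2 change between the groups accordingly ran from 0.468 for the shortest decile to -0.596 for the longest. With the trend in length taken out of each library, an alternative added after the data had been seen, these medians were -0.0199 and -0.0271, and values from it are called length-adjusted below. Whether the length used was right for any single gene was not tested.

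**Figure D1:**
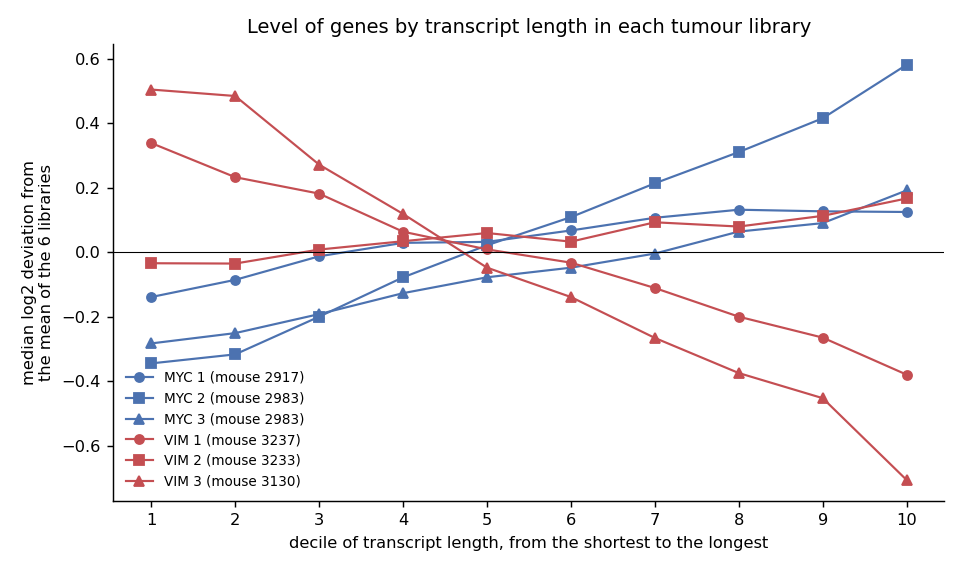
Median log2 deviation from the mean of the 6 tumour libraries (vertical axis) in deciles of transcript length (horizontal axis, shortest at left), with 1 line per library. VIM libraries 1 and 3 descend from short to long transcripts, MYC libraries 2 and 3 rise, and VIM library 2 and MYC library 1 are flatter.

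The comparison of VIM with MYC tumours passed 1 gene. Of 16246 genes tested, Ftcd was higher in VIM tumours by the criteria used (adjusted p below 0.05, log2 change beyond 1), which is 0.00616% of genes, and no gene was lower (0.0%). The next smallest adjusted p was 0.15. At an unadjusted p under 0.05 there were 2379 genes (14.6%), of which 1109 were higher (6.83%) and 1270 lower (7.82%). The libraries of the groups did not overlap for 1970 genes that were above in VIM (12.1%) and for 2115 that were below (13%), and the counts of list members below are to be read against these shares. The 5 normal kidneys were more alike (r 0.964 to 0.986) than tumours of 1 group (0.919 to 0.960), and when they shared the estimate of the spread, 342 genes passed as higher (2.11%) and 377 as lower (2.32%). Of these, 335 of the higher (98.0%) and 316 of the lower (83.8%) had libraries that did not overlap. Overlap was counted on the same 6 libraries that gave the calls, so these shares are not separate evidence for them. The spread in this fit came in part from the normal kidneys, so its p-values do not measure the spread between tumours alone and can be too small. A fit over the MYC, VM and VIM tumours without normal kidney passed 0 genes as higher and 0 as lower. The median log2 change of all genes was -0.10.

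**Figure D2:**
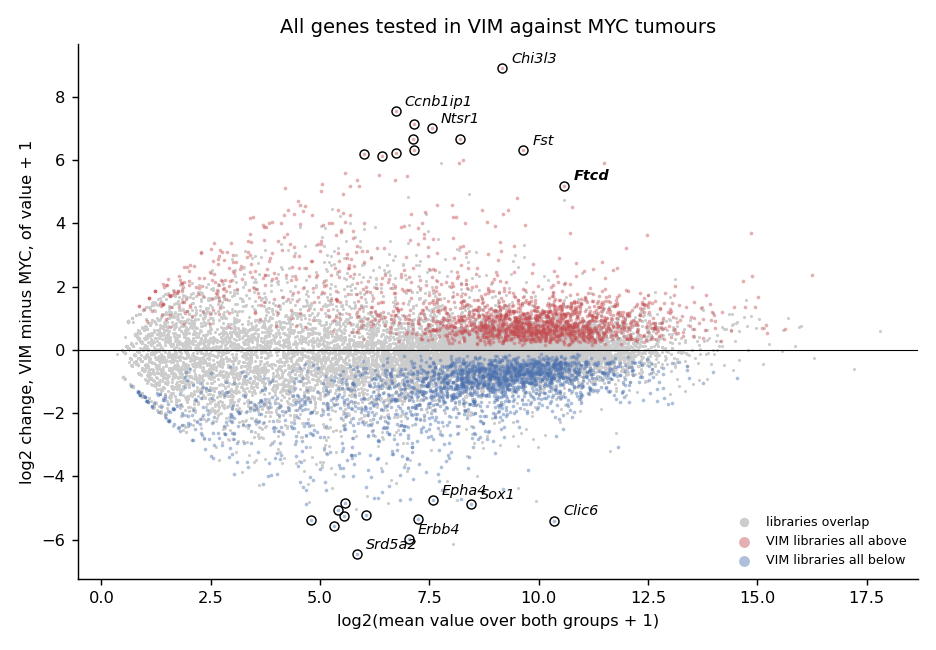
Log2 change of VIM against MYC tumours (vertical axis) against log2 of the mean level + 1 (horizontal axis) for the 16246 genes tested, coloured where the libraries of the groups did not overlap, with circles around Ftcd and the 23 other genes named by size of change. Ftcd, at a change of 5.19, is the 1 gene that passed the test.

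Ftcd encodes formimidoyltransferase-cyclodeaminase, an enzyme of histidine breakdown that feeds 1-carbon units into the folate pool, and it is annotated at chr10:76038393-76053083 on the plus strand of mm9. It was at 62.5, 156 and 45.2 units in the MYC tumours and at 3640, 3173 and 2157 units in the VIM tumours. Every VIM library was above every MYC library, and the mean of the VIM animals was 36.7 times that of the MYC animals (log2 change 5.19 ± 0.36, unadjusted p = 2.24e-06, adjusted p = 0.0363). VM tumours, which share Vhl loss but not Ink4a/Arf loss, lay at 424 to 3210 units, and normal kidney at 133 to 474 units. The gene was close to silent in both cultured lines (MYC cells 1.68 to 7.58, VIM cells 0.693 to 2.08 units). Ftcd passed in 6 of 18 other ways of running the comparison, with adjusted p between 0.00507 and 0.559 and a log2 change between 4.85 and 5.75.

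Larger changes than that of Ftcd, in genes at low levels in MYC tumours, did not pass. The 11 genes described here were taken by size of change among those that had an unadjusted p under 0.05, did not overlap between the groups and reached a mean of 50 units in at least 1 group (log2 change 6.12 to 8.9, adjusted p 0.15 to 0.254). Ccnb1ip1, a ubiquitin ligase of meiotic recombination also known as HEI10, was at 0 units in all MYC libraries and at 266, 281 and 84.4 units in the VIM libraries, at least 54-fold higher against a floor of 3 reads in each library. It was at 0 to 1.23 units in VM tumours and 0 to 31.6 in normal kidney. Cultured lines showed the same contrast for this gene, with 291 to 360 units in VIM cells and 0 to 0.542 in MYC cells.

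A further 3 genes were at 0 in every MYC library. Mov10l1, an RNA helicase of piRNA production, was at 132, 495 and 5.51 units in the VIM libraries (at least 54.2-fold). Tex19.1, which restrains transposons in germ cells and placenta, was at 401, 99 and 7.34 units (at least 43.5-fold). Xlr3c, an X-linked member of a family of near-identical copies whose reads may be shared, was at 518, 316 and 16.5 units (at least 72.9-fold). For these 3 genes VIM library 3 was the lowest of its group by a wide margin, and for Mov10l1 it stood at its floor of 3 reads. With 1 VIM library left out the bound ran 17.7 to 80.6 for Mov10l1, lowest without VIM library 2, and 13.7 to 64.3 for Tex19.1 and 42.7 to 107 for Xlr3c, lowest without VIM library 1. The X-linked genes Rhox6 (0.933, 0 and 0 against 535, 305 and 7.34 units), a homeobox gene of the reproductive tract with near copies, and Tex13 (0, 0 and 1.41 against 117, 229 and 31.2 units), a testis-expressed gene, followed the same order. Tex13 was also on in VIM cells (302 to 385 units) and at 0 units in MYC cells. VM tumours reached 0 to 229 units of Rhox6 and 23.4 to 145 units of Tex13, so these genes were not found in VIM tumours alone.

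The remaining genes of this group encode secreted proteins, enzymes and a receptor. Fst, or follistatin, which binds and blocks activins, was at 5.6, 81.8 and 8.47 units in MYC and 806, 1244 and 2684 units in VIM tumours (log2 change 6.32 ± 0.89), and VM tumours reached 152 to 2032 units. Ntsr1, a receptor for neurotensin, was at 0, 13.9 and 0 against 422, 249 and 441 units (7.0 ± 0.96). Uox, urate oxidase, was at 0, 1.54 and 2.82 against 584, 190 and 51.4 units (6.66 ± 1.15). Apoa4, an apolipoprotein that overlaps an antisense gene, was at 0, 15.4 and 2.82 against 840, 849 and 45.6 units (6.66 ± 1.56). Chi3l3, a chitinase-like protein made by activated macrophages, was at 0, 0 and 1.41 against 2772, 465 and 187 units, and it overlaps its near copy Chi3l4, with which reads may be shared.

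**Figure D3:**
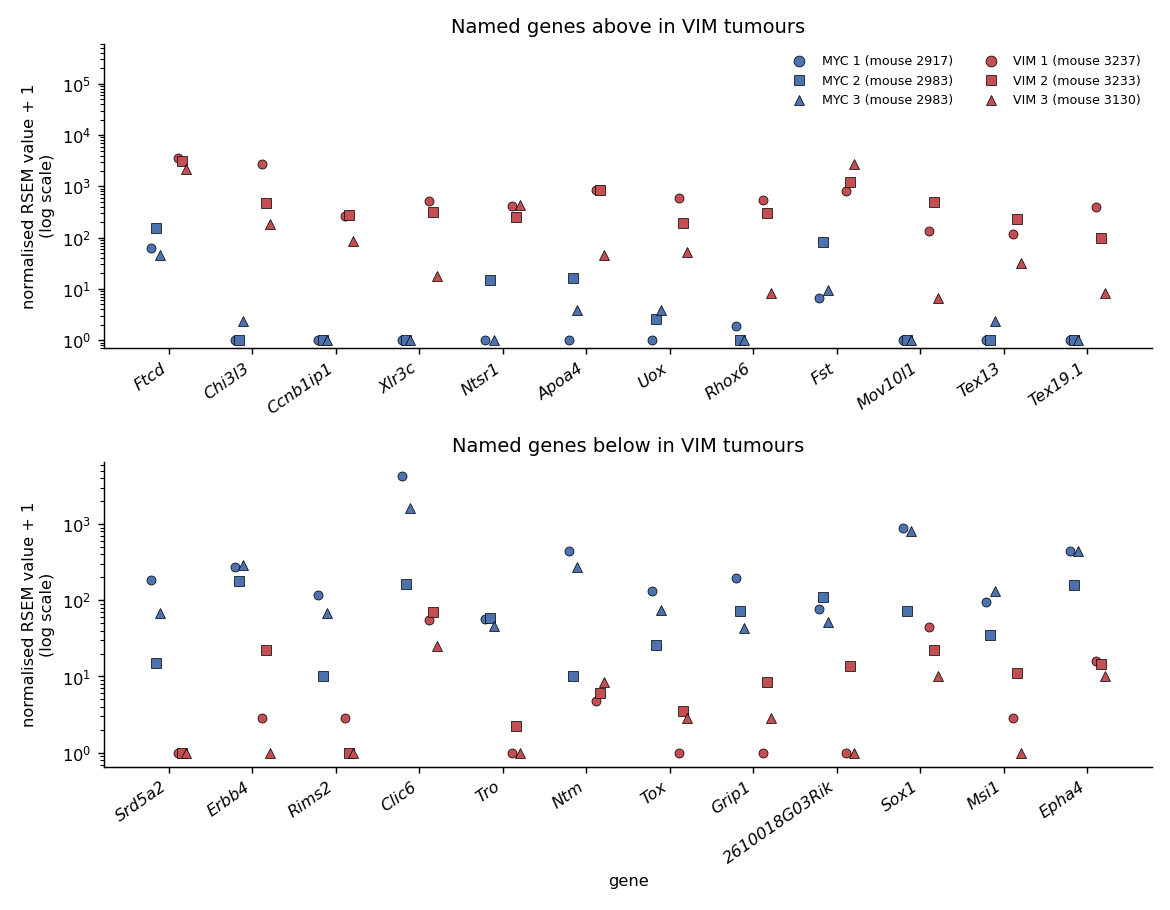
Units + 1 on a log axis (vertical axis, so that a value of 0 stands at 1) in each of the 6 tumour libraries for 12 genes above (top) and 12 below (bottom) in VIM tumours, namely Ftcd, which passed the test, and the largest changes among genes at an unadjusted p under 0.05 whose mean reached 50 units in 1 of the groups. Points of the groups do not overlap for any of the 24 genes, as the rule for choosing them required, and no other gene passed.

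The 12 largest differences in the other direction held no gene that passed (adjusted p 0.15 to 0.245). Srd5a2, the steroid 5-alpha-reductase that makes dihydrotestosterone, was at 186, 13.9 and 67.8 units in the MYC libraries and at 0 in every VIM library, at least 22.8-fold lower against a floor of 3 reads (8.21 to 25.5 with 1 MYC library left out, lowest without MYC library 1), and it was at 50.6 to 636 units in normal kidney. Sox1, a transcription factor of neural progenitors that was near 0 in normal kidney (0 to 1.73 units), was at 899, 71 and 816 units in MYC and at 43.3, 21.3 and 9.18 units in VIM tumours (log2 change -4.87 ± 0.77). Clic6, a chloride intracellular channel protein, was at 4243, 162 and 1636 against 54.6, 70.2 and 23.9 units (-5.40 ± 0.77), with MYC library 2 far below the other MYC libraries. The RNA-binding protein gene Msi1 was at 95.1, 34 and 133 against 1.88, 10 and 0 units (-4.83 ± 1.09).

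The other genes of this group had every MYC library above every VIM library, as the rule required. Erbb4, a receptor for neuregulins, was at 269, 181 and 292 units in MYC and 1.88, 21.3 and 0 units in VIM tumours (log2 change -5.98 ± 1.30). Epha4, a receptor for ephrins, was at 439, 156 and 439 against 15.1, 13.8 and 9.18 units (-4.76 ± 0.62). Ntm, or neurotrimin, an adhesion protein of neurons, was at 449, 9.26 and 275 against 3.77, 5.01 and 7.34 units (-5.35 ± 0.79). The scaffold genes Grip1 (-5.21 ± 1.11) and Rims2 (-5.57 ± 0.90) and the adhesion-related gene Tro (-5.37 ± 0.75), together with Tox, a nuclear factor of T cell development (-5.24 ± 0.90), and 2610018G03Rik (-5.06 ± 1.27) differed in the same direction. MYC library 2 was the lowest of its group for 9 of the 12 genes. Erbb4, Ntm, Tox, Grip1, Msi1, Clic6 and Rims2 overlap other annotated genes, and whether counting used strand is not given in the sources used here.

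Genes that sense oxygen and form HIF did not differ in a single direction. Of 9 subunits and hydroxylases tested, 2 were above and 2 below in VIM without overlap, none passed, and the median log2 change was -0.46 (0.06 length-adjusted). Egln3, a prolyl hydroxylase that is itself a HIF target, was at 356, 1204 and 938 units in MYC and 4580, 2091 and 7956 units in VIM tumours. All VIM libraries were above the MYC libraries (log2 change 2.78 ± 0.66, adjusted p = 0.234), VM tumours were at 4896 to 8108 units, and normal kidney at 369 to 613 units. Egln1, the main oxygen-sensing hydroxylase, overlapped between groups (1051, 1463 and 1674 against 2040, 1446 and 1931 units, log2 change 0.48 ± 0.30). The stretch of the Egln3 promoter printed above holds 1 core, around which it was cut.

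Among the HIF subunits tested, Hif3a alone was above in every VIM library. Hif1a was at 1753, 2268 and 1751 units in MYC and 1043, 1889 and 1281 units in VIM tumours (log2 change -0.46 ± 0.32), and Epas1, at 151 to 396 and 117 to 461 units, was in both groups far below the 1576 to 3440 units of normal kidney. Hif3a, whose product can restrain the other factors and which HIF1A can induce, was at 268, 313 and 684 against 817, 1086 and 1039 units (1.41 ± 0.35, adjusted p = 0.245). The partner subunits Arnt (857, 6414 and 989 against 460, 724 and 714 units, -1.52 ± 0.60) and Arnt2 (1304, 1370 and 1734 against 603, 1112 and 127 units, -1.69 ± 0.84) were below in VIM, Arnt with MYC library 2 far above the rest. HIF proteins are regulated after translation, so these RNA levels do not measure the factors. Hif3a, Epas1, Arnt and Arnt2 were chosen after their values were seen, as was every gene described from here on that is neither among the 3 members of its list with the highest mean nor among the largest changes.

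Most HIF targets outside glycolysis overlapped between the groups. Of 41 tested, 6 were above and 1 below without overlap, which is 14.6% above beside 12.1% of all genes, and none passed. The median log2 change was 0.59 beside -0.10 for all genes, and it was 0.15 to 0.91 when 1 library at a time was left out, lowest without MYC library 1. Among the 3 members with the highest mean, Ndrg1, a stress-induced gene, overlapped at 57570, 44123 and 27713 against 82714, 47048 and 110403 units (0.73 ± 0.72). Bnip3, a mitophagy receptor induced in low oxygen, was at 1257, 3685 and 3120 against 9284, 2975 and 34274 units (2.25 ± 0.98), and VIM library 2 lay among the MYC libraries. Selenbp1, a selenium-binding protein, was at 1858, 7769 and 1468 against 9733, 5494 and 7536 units (1.33 ± 0.46).

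The 6 members above in every VIM library were Egln3, Fam162a, P4ha2, Gbe1, Edn1 and Hilpda. Fam162a, a mitochondrial protein induced by HIF1A, was at 855, 1082 and 1403 units in MYC and 4328, 1622 and 7682 units in VIM tumours (1.87 ± 0.62). Gbe1, the glycogen branching enzyme, was at 282, 424 and 295 against 1282, 789 and 1766 units (1.93 ± 0.39, adjusted p = 0.211). P4ha2, a subunit of collagen prolyl 4-hydroxylase, was at 849, 1682 and 802 against 2893, 2008 and 3418 units (1.40 ± 0.33), and its printed promoter stretch holds 2 cores, 4 bases apart. Edn1, the vasoconstrictor endothelin-1, was at 80.2, 156 and 55.1 against 429, 263 and 163 units (1.51 ± 0.53). Hilpda, which promotes lipid droplets, came near to overlap, with VIM library 2 just above MYC library 2 (205, 336 and 308 against 595, 343 and 1008 units, 1.2 ± 0.50).

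Widely used HIF markers did not separate the groups. Car9, a carbonic anhydrase that marks clear cell tumours, was at 21.5, 611 and 564 units in MYC and 213, 95.2 and 1355 units in VIM tumours (1.40 ± 1.56), and Vegfa, the angiogenic growth factor, at 765, 3057 and 2051 against 1810, 1594 and 2858 units (0.53 ± 0.53). Both changes were negative without MYC library 1, at -0.96 for Car9 and -0.34 for Vegfa. Ankrd37 (12.1, 355 and 208 against 354, 227 and 507 units) and Angptl4, an inhibitor of lipoprotein lipase (245, 904 and 295 against 524, 1619 and 2375 units), overlapped as well. MYC library 1 was the lowest of the 6 for Car9, Vegfa, Ankrd37, Angptl4 and Bnip3, whereas MYC library 2, from the other mouse, passed at least 1 VIM library for each of these genes. MYC library 3, from the same mouse as library 2, did so for Car9, Vegfa and Bnip3 and stayed below every VIM library for Ankrd37 and Angptl4.

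Many glycolytic enzymes were above in every VIM library. Of 23 genes tested, 10 were above in VIM without overlap (43.5%, beside 12.1% of all genes) and 2 below (8.7%, beside 13%), and none passed. The median log2 change was 0.95 (0.77 length-adjusted). Without MYC library 1 it was 0.17, and when any other library was left out it stayed above that, up to 1.04. In the fit that shared its spread with normal kidney, 7 of the 23 passed as higher (beside 2.11% of all genes): Aldoa, Pgk1, Pgam1, Eno1, Ldha, Slc16a3 and Pdk1. That fit also passed 6 of 21 genes of oxidative phosphorylation and 5 of 41 HIF targets outside glycolysis as higher. It passed 3 of 18 targets of the antioxidant regulator NRF2, 3 of 30 p53 targets, 2 of 25 lipid genes and 2 of 21 distal nephron markers. At most 1 gene of any other list passed as higher, and none of the replication, mitosis or ribosome biogenesis lists. The spread in that fit came in part from normal kidneys, as stated above, and none of these genes passed in a fit over the tumours alone.

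Ldha, which turns pyruvate into lactate, was at 11474, 17076 and 21482 units in MYC and 50589, 30792 and 69926 units in VIM tumours. Every VIM library was above every MYC library (log2 change 1.68 ± 0.57, adjusted p = 0.293), VM tumours were at 47995 to 48783 units and normal kidney at 7184 to 13359 units. Aldoa, or aldolase A, was at 9122, 16940 and 15736 against 30778, 23343 and 42394 units (1.36 ± 0.49). Pgk1, phosphoglycerate kinase, whose reads may be shared with processed copies elsewhere in the genome, was at 760, 1481 and 1186 against 3817, 1845 and 5604 units (1.76 ± 0.50). Pdk1, the kinase that closes the pyruvate dehydrogenase gate to the mitochondrion, was at 4166, 5779 and 6006 against 10798, 8395 and 14944 units (1.16 ± 0.37). For these 4 genes VIM library 2 was the lowest VIM library and VIM library 3 the highest. Eno1, enolase 1, was at 1706, 5249 and 2560 against 6470, 6219 and 5833 units (1.26 ± 0.39), and Pgam1 at 6947, 6920 and 9215 against 17117, 12915 and 16532 units (1.04 ± 0.34).

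Transport of sugar and lactate did not follow the enzymes as a block. Slc16a3 (MCT4), which exports lactate, was at 39.3, 1672 and 474 units in MYC and 3512, 1729 and 3142 units in VIM tumours (3.68 ± 1.22, adjusted p = 0.288), with MYC library 2 only just below VIM library 2. It was at 6297 to 6833 units in VM tumours and 4.18 to 10.7 units in normal kidney. Slc2a1 (GLUT1), the glucose transporter of many tumours, overlapped at 288, 2353 and 1514 against 2412, 1792 and 1683 units (1.37 ± 0.73). Slc2a3 (GLUT3) went the opposite way at 221, 475 and 295 against 35.8, 53.9 and 95.5 units (-2.34 ± 0.61), as did Slc16a1 (MCT1) at 3170, 7145 and 3743 against 3038, 3000 and 2675 units (-0.52 ± 0.31, -0.08 length-adjusted). Hexokinase 2 (Hk2; -0.23 ± 0.41) and Pkm2, pyruvate kinase (6872, 25912 and 18746 against 25510, 24803 and 31163 units, 1.12 ± 0.58), overlapped. Gapdh, which has many processed copies, differed by 0.45 ± 0.24.

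**Figure D4:**
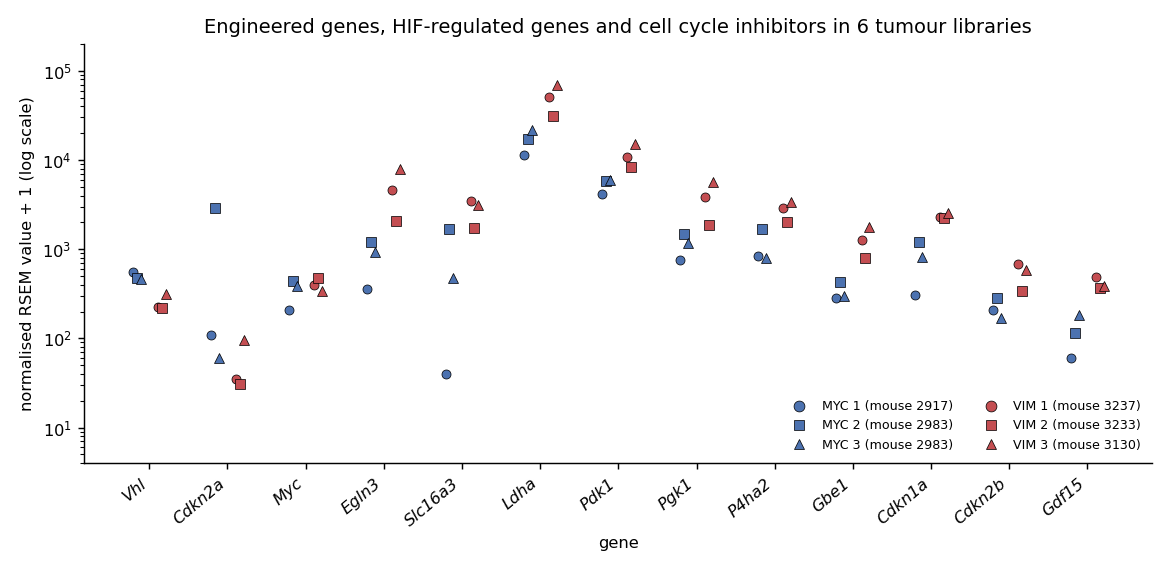
Units + 1 on a log axis (vertical axis) in each of the 6 tumour libraries, with 1 point per library, MYC in blue and VIM in red. Shown on the horizontal axis are engineered genes, HIF-regulated genes, cell cycle inhibitors and the p53 target Gdf15. The genes from Egln3 to Gdf15 were picked from those above in every VIM library, so that their VIM points lie above their MYC points by choice. Members of the same lists that overlapped, among them Car9, Vegfa, Bnip3, Cdkn1b and Cdkn2c, are not shown. VIM points lie below MYC points for Vhl, and Cdkn2a has 1 MYC library at 2872 units.

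Inhibitors of cyclin-dependent kinases were above in VIM tumours or overlapped. Of 7 tested, Cdkn2a included, 2 were above without overlap, none was below, and the median log2 change was 0.02, with a range of -0.30 to 0.52 when 1 library was left out. Cdkn1a (p21), an inhibitor induced by p53 and by other signals, was at 305, 1193 and 823 units in MYC and 2307, 2254 and 2563 units in VIM tumours (2.09 ± 0.49, adjusted p = 0.234). VM tumours spread from 265 to 5929 units. Cdkn2b (p15), the neighbour of Cdkn2a, was at 207, 285 and 169 against 684, 342 and 589 units (1.25 ± 0.40). The members with the highest means, Cdkn1b (p27; 1505, 2167 and 1887 against 1158, 1165 and 3271 units) and Cdkn2c (p18; 832, 696 and 764 against 367, 395 and 1366 units), overlapped, with VIM library 3 the highest of all for both.

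Targets of p53 were examined because ARF, which VIM tumours lack, acts through it. Of 30 tested, 9 were above (30%) and 3 below (10%) without overlap, beside 12.1% and 13% of all genes, none passed, and the median log2 change was 0.42 (0.22 to 0.58 with 1 library left out, 0.65 length-adjusted). Gdf15, a secreted stress cytokine, was at 59.7, 113 and 184 units in MYC and 490, 371 and 387 units in VIM tumours (2.12 ± 0.49). Perp, an effector of p53 at desmosomes, was at 1344, 1918 and 2799 against 5586, 3414 and 6684 units (1.5 ± 0.40), and Ccng1, cyclin G1, at 3174, 1443 and 2610 against 4829, 3815 and 13909 units (1.32 ± 0.57). Bax (1.11 ± 0.30), which permeabilises mitochondria in apoptosis, the nuclease gene Aen (1.11 ± 0.29) and the kinase gene Plk2 (1.78 ± 0.60) were also above in every VIM library. Trp53 itself was at 2092, 1699 and 2236 against 866, 1487 and 786 units (-1.01 ± 0.34), below in every VIM library, as was Apaf1 (-1.14 ± 0.38), the core of the apoptosome. Mdm2, which targets p53 for destruction, overlapped (804, 997 and 1069 against 1119, 1029 and 2091 units), as did Zmat3 (0.21 ± 0.31).

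Proliferation genes had median changes below 0, with overlap for most members. Of 26 replication and G1/S genes, 1 was above and 3 were below without overlap (median -0.63, -0.56 length-adjusted, -0.88 to -0.44 with 1 library left out). Of 25 mitosis genes none was above and 2 were below (median -0.56, -0.45 length-adjusted). Mki67 was at 2702, 3569 and 7685 units in MYC and 2179, 3965 and 1035 units in VIM tumours (-0.91 ± 0.59, -0.24 length-adjusted). Top2a, the topoisomerase of dividing cells, was at 2570, 3994 and 5373 against 1109, 2595 and 934 units (-1.32 ± 0.50), and Ccna2, cyclin A2, at 1645, 1687 and 4004 against 1747, 2510 and 1330 units (-0.27 ± 0.38). VIM library 2 lay within the MYC range for all of Mki67, Top2a and Ccna2, and all 6 tumours were far above normal kidney (Mki67 at 61.6 to 122 units).

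The 3 replication genes below without overlap are 11.5% of the list, beside 13% of all genes. Mcm3, a subunit of the replicative helicase, was at 1096, 1382 and 1517 against 368, 940 and 270 units (-1.47 ± 0.54), Pola1, the catalytic subunit of DNA polymerase alpha, at 908, 843 and 1194 against 384, 655 and 310 units (-1.17 ± 0.38), and the 3 members with the highest means, Rrm1 (-0.68 ± 0.35), Mcm6 (-1.15 ± 0.57) and Rrm2 (0.25 ± 0.32), overlapped. Ccne1, cyclin E1, which acts with CDK2 at the entry to S phase, was the exception, at 197, 191 and 202 against 367, 434 and 406 units (1.02 ± 0.33). Of 11 D cyclin and RB family genes none was above and 3 were below. Ccnd2, cyclin D2, was at 521, 2748 and 1054 against 107, 211 and 397 units (-2.25 ± 0.72), and Cdk4 (-0.09 ± 0.33), Ccnd1 (-0.31 ± 0.41) and Rbl2 (-0.25 ± 0.35) overlapped.

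Nuclear genes of the respiratory chain formed the list with the most members above in VIM tumours. Of 21 tested, 19 were above without overlap (90.5%, beside 12.1% of all genes) and none was below, although none passed. Their transcripts are short, and the median log2 change of 1.19 was 0.67 length-adjusted and 0.73 without VIM library 3, the library with the strongest trend in length. Atp5b, a catalytic subunit of ATP synthase, was at 39886, 38019 and 38705 units in MYC and 58857, 53827 and 72354 units in VIM tumours (0.65 ± 0.59), and Atp5a1 at 32826, 28466 and 30185 against 46706, 44649 and 44532 units (0.55 ± 0.51). Sdhb, the iron-sulphur subunit of succinate dehydrogenase, was at 1879, 3580 and 1362 against 7755, 4925 and 11143 units (1.80 ± 0.40, 1.48 length-adjusted). Cox5a of cytochrome oxidase was at 3403, 2122 and 3196 against 9829, 5669 and 9081 units (1.41 ± 0.34, 0.92 length-adjusted), and Ndufb8 of complex I differed by 2.0 ± 0.54 (1.40 length-adjusted). Cox4i1 (12775, 8660 and 14386 against 26780, 12912 and 54944 units) and Sdha (8371, 5148 and 6210 against 8783, 8194 and 5579 units) were the exceptions that overlapped.

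Genes that store and burn lipid were above in VIM tumours or overlapped. Of 25 tested, 10 were above (40%) and none below, none passed, and the median log2 change was 0.66 (0.61 length-adjusted, 0.56 to 0.73 with 1 library left out). Acadm, the medium-chain acyl-CoA dehydrogenase, was at 3695, 1563 and 4062 units in MYC and 9160, 6378 and 9562 units in VIM tumours (1.35 ± 0.32), and Acadl, the long-chain enzyme, at 3504, 3292 and 4734 against 4893, 4947 and 8608 units (0.66 ± 0.35). Acadvl was at 2081, 1467 and 1902 against 3702, 4029 and 3927 units (1.05 ± 0.25, 1.06 length-adjusted). Dgat1, which makes triglyceride, was at 752, 633 and 662 against 1712, 951 and 3104 units (1.30 ± 0.48). Cd36, a fatty acid transporter, was at 1021, 201 and 299 against 1456, 1187 and 16606 units (2.60 ± 1.18), with VIM library 3 far above the others. That library also held 899 units of the adipocyte gene Cfd, which was at 0 in the other VIM libraries and at 1071 units in MYC library 3. Cpt1a, the gate of fatty acid import into mitochondria, overlapped (5059, 4005 and 4247 against 4247, 6310 and 3337 units).

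Enzymes that make sterols and fatty acids had a median change near 0. Of 16 tested none was above and 1 was below, with a median log2 change of 0.05 and a range of -0.19 to 0.27 with 1 library left out. Scd2 (0.29 ± 0.37), Acly (-0.14 ± 0.39) and Fasn (-0.56 ± 0.59) overlapped. Targets of NRF2, the regulator of the antioxidant response, were above for 6 of 18 (33.3%) and below for 1, with a median of 0.50. Srxn1, sulfiredoxin, was at 589, 546 and 556 units in MYC and 1620, 1536 and 1243 units in VIM tumours (1.35 ± 0.26, adjusted p = 0.2), and Me1, malic enzyme, at 609, 349 and 888 against 2808, 1506 and 2676 units (1.87 ± 0.34). Nqo1 was at 22.4, 30.9 and 8.47 against 77.2, 199 and 62.4 units (2.18 ± 0.72), all far below the 1131 to 1545 units of normal kidney. Gclm, the modifier subunit of glutathione synthesis, was below in every VIM library (2957, 2157 and 3068 against 1981, 1644 and 1114 units, -0.85 ± 0.31), and Gclc (0.68 ± 0.71) and Txnrd1 (-0.06 ± 0.29) overlapped.

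Ribosome biogenesis, a process that MYC can drive, showed a small median difference. Of 22 genes 6 were above (27.3%, beside 12.1% of all genes) and 1 below (4.55%, beside 13%), with a median log2 change of 0.18. Ncl, nucleolin, was at 22873, 31951 and 27306 units in MYC and 21770, 35350 and 11501 units in VIM tumours, Npm1, nucleophosmin, at 15330, 19199 and 17932 against 27354, 18808 and 31356 units, and Ddx21 at 3838, 4887 and 4499 against 4282, 6960 and 2289 units. All 3 overlapped and stood above normal kidney in every tumour. Nop16, a nucleolar protein, was above in every VIM library (1521, 1784 and 1551 against 3239, 2603 and 3203 units, 0.91 ± 0.25, 0.47 length-adjusted).

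Markers of the tubule segments mostly overlapped. Napsa, the aspartic protease napsin A of proximal tubule, was at 702, 742 and 811 units in MYC and 10492, 7427 and 4318 units in VIM tumours, with MYC libraries close together and every VIM library far above them (3.23 ± 0.40, adjusted p = 0.15). VM tumours were at 273 to 2162 units and normal kidney at 42774 to 86807 units. Of 23 proximal tubule markers 1 was above (Napsa; 4.35%, beside 12.1% of all genes) and none below, with a median of 1.09 that ran 0.05 to 1.80 with 1 library left out. Slc3a1, a transporter of cystine, was at 5095, 799 and 1408 against 7270, 4219 and 5411 units (1.21 ± 0.63), and Slc4a4, the basolateral bicarbonate cotransporter, at 8697, 1926 and 1627 against 3407, 3548 and 2113 units (-0.42 ± 0.65). Gatm, which starts creatine synthesis, came close to separating the groups (1089, 336 and 155 against 4846, 1038 and 4224 units, 2.42 ± 0.84), while Kap, an androgen-dependent gene of mouse proximal tubule, was at 9.89 to 685 and 193 to 1516 units against 233226 to 1234950 in normal kidney.

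Few markers of the distal nephron separated the groups. Atp6v0d2, a subunit of the proton pump, was at 52.2, 102 and 69.2 units in MYC and 565, 748 and 424 units in VIM tumours (3.06 ± 0.44, adjusted p = 0.15), and Slc26a4, or pendrin, at 2.8, 0 and 1.41 against 16.9, 258 and 23.9 units (4.26 ± 1.27). Of 21 markers tested 3 were above (14.3%) and none below, with a median of 1.58 that ran -0.04 to 2.63 with 1 library left out. Umod, or uromodulin, of the thick ascending limb, was at 24.3, 2475 and 74.9 against 109, 3228 and 34.9 units, high in MYC library 2 and VIM library 2 alone, and Aqp2, the water channel of collecting duct, reached 464 units in VIM library 2. Residual normal tubule in those libraries was not tested. Wnk1 (-0.63 ± 0.46) and Trpm6 (-0.20 ± 0.40) overlapped. Of 14 genes of papillary and collecting duct tumours 1 was above (Krt19; 7.14%, beside 12.1% of all genes) and none below. Their median of 0.89 ran -0.55 to 1.72 with 1 library left out. Krt19, a keratin of ducts, was at 2.8, 336 and 184 against 736, 920 and 461 units (4.43 ± 1.57). Spp1, a secreted glycoprotein also called osteopontin, overlapped at 192280, 86373 and 233606 against 176377, 144424 and 61074 units. Met (-0.60 ± 0.48) and Krt8 (0.64 ± 0.72) overlapped.

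Transcription factors of the renal lineage included genes that were below as well as above. Pax2, active in the developing kidney, was at 62.5, 10.8 and 29.7 units in MYC and 1.88, 10 and 0 units in VIM tumours (-3.53 ± 1.16), and Sall1, of nephron progenitors, at 1762, 2128 and 2069 against 1134, 1405 and 762 units (-0.85 ± 0.33, -0.37 length-adjusted). Wt1, the podocyte and progenitor factor, was at 0.933, 34 and 0 against 75.3, 102 and 58.7 units (3.72 ± 1.04). The median over 19 tested was -0.50, and Hnf4a, of proximal tubule (-0.50 ± 0.32), Tfcp2l1, of collecting duct (-0.60 ± 0.41), and Maf (0.56 ± 0.82) overlapped.

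Among cadherins and genes of epithelial-mesenchymal transition, few separated the groups. Zeb1, a repressor of E-cadherin, was at 159, 269 and 237 units in MYC and 26.4, 62.7 and 53.2 units in VIM tumours (-2.14 ± 0.63, -2.44 length-adjusted), and Zeb2 at 1356, 1484 and 1678 against 635, 878 and 1127 units (-0.77 ± 0.32, -0.29 length-adjusted). Ovol1, which opposes them, was at 53.2, 60.2 and 41 against 243, 208 and 147 units (1.89 ± 0.49). Cdh6, a cadherin of the nascent nephron, was at 750, 637 and 2627 against 318, 615 and 323 units (-1.47 ± 0.46). E-cadherin itself (Cdh1) overlapped, at 446, 1340 and 335 against 2075, 3847 and 255 units, as did vimentin (Vim; 1046, 2522 and 5363 against 1847, 2653 and 1129 units), Loxl2 (0.83 ± 0.81) and Cdh16 (-0.50 ± 0.37). Of 22 genes in the list 1 was above and 4 were below (18.2%), and the median of -0.37 ran -0.68 to 0.47 with 1 library left out.

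Vascular and mural markers did not separate the groups. Of 18 endothelial and 9 mural markers none was above or below without overlap. Pecam1 was at 196, 440 and 52.3 units in MYC and 132, 217 and 255 units in VIM tumours, and Plvap (-0.28 ± 0.49), Eng (-0.36 ± 0.49) and Emcn (0.50 ± 0.52) overlapped, with MYC library 3 the lowest for each of these. The smooth muscle genes Acta2 (101, 1265 and 2788 against 254, 422 and 534 units) and Tagln (-0.04 ± 0.80) and the pericyte gene Cspg4 (-0.54 ± 0.39) overlapped.

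The chains of basement membrane collagen were below in every VIM library. Col4a1 was at 10338, 11772 and 11068 units in MYC and 3228, 6346 and 2642 units in VIM tumours (-1.52 ± 0.42, -0.95 length-adjusted, adjusted p = 0.254). Its partner chain Col4a2 was at 4888, 7404 and 5623 against 2567, 4679 and 1773 units (-1.03 ± 0.44, -0.68 length-adjusted), and Mmp2, a gelatinase of stroma, at 234, 594 and 138 against 33.9, 91.5 and 95.5 units (-2.12 ± 0.63). S100a4 went the opposite way (59.7, 37 and 4.24 against 284, 159 and 125 units, 2.31 ± 0.68), and Sparc overlapped (-0.41 ± 0.51). Over 16 fibroblast and collagen genes the median was -0.77, with a range of -1.55 to 0.01 with 1 library left out.

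Immune markers were described by cell type. Markers of T, NK and B cells were low throughout and below in VIM for 8 of 19 (42.1%, beside 13% of all genes), with a median log2 change of -1.03 that ran -2.38 to -0.77 with 1 library left out. Lck, a kinase of T cells, was at 107, 49.4 and 43.8 units in MYC and 18.8, 21.3 and 3.67 units in VIM tumours (-2.49 ± 0.94, adjusted p = 0.318), but cultured tumour cells held it too, at 43.3 to 64.8 units in MYC cells and 25 to 31.9 units in VIM cells. Cd3g was at 11.2, 9.26 and 1.41 units in MYC tumours and at 0 in every VIM library, and Klrk1, a receptor of NK cells, was at 14, 1.54 and 2.82 units and at 0. Several of these values are within a few reads of 0. Cd8a (52.2, 20.1 and 1.41 against 1.88, 10 and 1.84 units) and Cd274, which encodes PD-L1 (0.22 ± 0.82), overlapped.

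Neutrophil markers were above in every VIM library for 4 of 7 (57.1%, beside 12.1% of all genes), while the other 3 overlapped and had changes below 0, with a median of 1.69 (1.12 to 1.72 with 1 library left out). S100a8 was at 28, 30.9 and 18.4 units in MYC and 171, 67.7 and 187 units in VIM tumours (2.26 ± 0.67), S100a9 at 33.6, 34 and 14.1 against 107, 66.4 and 202 units (1.95 ± 0.68), and Cxcr2, the chemokine receptor that neutrophils use, at 2.8, 7.72 and 7.06 against 16.9, 16.3 and 18.4 units (1.69 ± 0.74). The S100a8 and S100a9 transcripts are short, and their length-adjusted changes were 1.55 and 1.35. Csf3r, the receptor for the growth factor of neutrophils, overlapped (93.3, 35.5 and 18.4 against 16.9, 38.8 and 16.5 units, -1.14 ± 0.83). Of 18 chemokines and receptors 3 were above, among them Ccr1 (28.9, 105 and 28.2 against 179, 149 and 143 units, 1.81 ± 0.57), and Cxcl1, a ligand of Cxcr2, came close to separating the groups (404, 170 and 192 against 821, 392 and 1114 units, 1.39 ± 0.55). Cxcl16 (0.04 ± 0.67) and Cxcr7 (-1.10 ± 0.30) overlapped.

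Macrophage markers gave no single direction. Lyz2, or lysozyme, was at 11299, 1610 and 1801 units in MYC and 11377, 4851 and 6531 units in VIM tumours, with MYC library 1 level with VIM library 1, and Ctss (0.67 ± 0.77) and C1qa (0.04 ± 0.53) overlapped. Csf1r, the growth factor receptor of macrophages, was below in every VIM library (2427, 965 and 929 against 727, 836 and 593 units, -1.09 ± 0.43), as were Cd14 (-1.48 ± 0.51) and Cx3cr1 (1148, 156 and 154 against 45.2, 133 and 49.6 units, -2.64 ± 0.93), the last with MYC library 1 far above the others. Cultured MYC and VIM cells held 198 to 231 and 259 to 294 units of Csf1r and 340 to 375 and 224 to 237 units of Cd14. The median of 18 markers was -0.15.

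Some components of antigen presentation were below in every VIM library. B2m, the light chain of MHC class I, was at 7769, 6645 and 4383 units in MYC and 3810, 3742 and 3247 units in VIM tumours (-0.87 ± 0.28, -1.28 length-adjusted). Tap1, the peptide transporter, which overlaps Psmb9, was at 354, 264 and 113 against 54.6, 108 and 78.9 units (-1.73 ± 0.55), and Irf1, an activator of both, at 671, 457 and 449 against 247, 288 and 272 units (-1.04 ± 0.34). The class I heavy chains H2-K1 (7506, 6677 and 4839 against 6471, 3570 and 4477 units) and H2-D1 (-0.32 ± 0.30), near copies whose reads may be shared, overlapped. Class II genes H2-Aa (992, 1420 and 151 against 141, 331 and 130 units) and H2-Eb1 (870, 1316 and 81.9 against 126, 152 and 84.4 units) were lowest in MYC library 3 within the MYC group and overlapped. Of 25 genes in the list, 2 were above and 3 below without overlap, near the shares over all genes.

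Red cell, muscle and adipocyte markers overlapped (Hba-a2 -0.36 ± 0.99, Hbb-b1 -0.50 ± 1.19, Cfd -1.92 ± 3.56), as did adrenal and liver markers (Star 0.29 ± 0.53, Apoa2 -1.02 ± 0.92, Alb 0.90 ± 1.72), which were low in all 6 tumours.

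Receptor tyrosine kinases were below in VIM tumours or overlapped. Of 25 receptors and ligands 6 were below without overlap (24%, beside 13% of all genes) and none was above. These are long transcripts, and the median log2 change of -0.78 was -0.27 length-adjusted. Fgfr2, a fibroblast growth factor receptor of tubule epithelium, was at 224, 156 and 299 units in MYC and 11.3, 55.1 and 12.8 units in VIM tumours (-3.42 ± 0.83, -3.38 length-adjusted). Ephb4 was at 1387, 1881 and 1472 against 672, 945 and 602 units (-1.07 ± 0.30, -0.70 length-adjusted), Fgfr1 at 285, 823 and 236 against 94.2, 229 and 88.1 units (-1.64 ± 0.58) and Egfr at 877, 1170 and 1148 against 665, 714 and 242 units (-1.05 ± 0.51). Igf1r (-0.91 ± 0.39, -0.53 length-adjusted) was below as well, and Erbb2 (-0.66 ± 0.45) overlapped.

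Among matrix genes, Lgals3, or galectin-3, was at 1729, 1293 and 1809 units in MYC and 3934, 2632 and 3649 units in VIM tumours (1.03 ± 0.28). Timp3, an inhibitor of metalloproteases, was at 4538, 9571 and 8447 against 2759, 4190 and 2821 units (-1.0 ± 0.39), against 51307 to 72423 in normal kidney, and the protease gene Adamts1 at 8911, 7230 and 13821 against 6405, 6310 and 1821 units (-1.21 ± 0.58). Of 22 genes 1 was above and 3 were below.

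**Figure D5:**
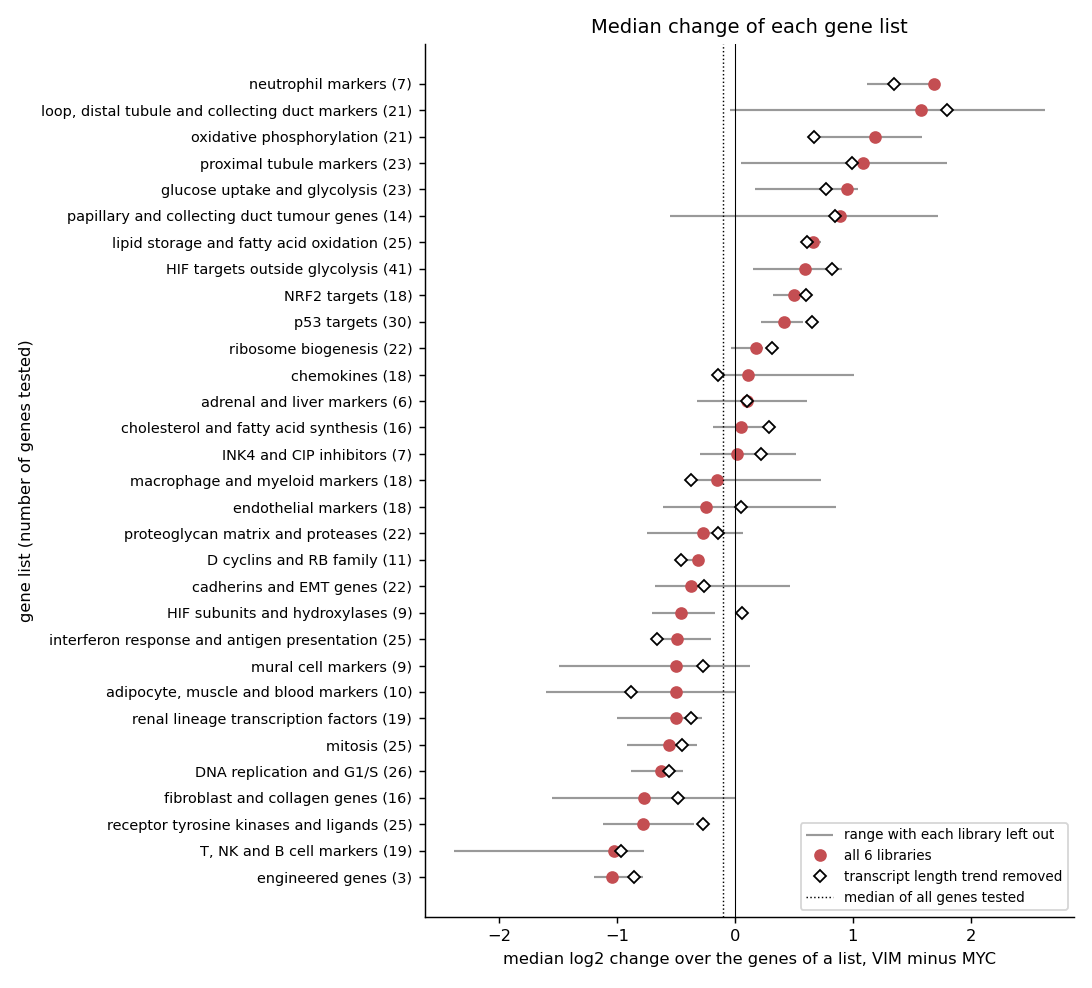
Median log2 change of VIM against MYC tumours over the tested members of each list (horizontal axis, filled points), its range when 1 library at a time is left out (lines), its length-adjusted value (open diamonds), and the median of all genes at -0.10 (dotted line). Ranges stay above 0 for respiratory chain, lipid, neutrophil, glycolysis, HIF target, p53 target, NRF2 target and proximal tubule genes. They stay below 0 for T, NK and B cell, replication, mitosis, D cyclin, HIF subunit, renal lineage, interferon, receptor kinase and engineered genes. The ranges of the tubule segment lists are wide.

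Cultured lines of these genotypes were compared as other libraries without surrounding stroma. The comparison was of 1 VIM line with 1 MYC line, each with 4 cultures on Dox, so its p-values measure the spread between cultures and not between animals, and the MYC line came from the mouse of MYC libraries 2 and 3. Of 14685 genes tested 831 were higher in VIM cells (5.66%) and 2684 lower (18.3%), a split that was 1673 and 1779 with quantile scaling. In the tumours, 923 genes (5.68%) were above in VIM without overlap and by over 1 in log2, of which 776 (84.1%) were tested in the cells. Of these, 78 were higher in VIM cells (10.1%) and 121 lower (15.6%). These are 9.39% of the genes higher and 4.51% of the genes lower in VIM cells. The matching genes below in the tumours were 1095 (6.74%), with 1010 (92.2%) tested in the cells. Of these, 41 were higher in VIM cells (4.06%) and 344 lower (34.1%), which are 4.93% and 12.8% of the genes higher and lower in the cells. These shares are to be read beside the 5.66% and 18.3% of all genes.

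Hypoxia and glycolysis genes were higher in VIM cells for a larger share than all genes, and lower for a share near that of all genes. Of 40 HIF targets outside glycolysis tested in the cells, 18 were higher in VIM cells (45%) and 6 lower (15%), and of 23 glycolysis genes 9 were higher (39.1%) and 4 lower (17.4%), beside 5.66% and 18.3% of all genes. Among other lists, p53 targets had 12 of 29 higher (41.4%) and 2 lower, and oxidative phosphorylation had 0 of 21 called. Lipid genes had 1 of 22 higher and 7 lower (31.8%), and NRF2 targets 1 of 18 higher and 7 lower (38.9%). Egln3 was at 187 to 220 units in MYC cells and 2086 to 2351 units in VIM cells (log2 change 3.45 ± 0.05), Slc16a3 at 1396 to 1571 against 10076 to 10313 units (2.79 ± 0.03), and Pgk1 at 1066 to 1137 against 3301 to 3682 units (1.66 ± 0.04). Pdk1 changed by 1.66 ± 0.03, and Ldha, at 32210 to 34672 against 57736 to 59032 units, by 0.81 ± 0.03, short of the change of 1 that a call required. Some genes that were above in every VIM tumour library were not higher in VIM cells, among them Eno1 (8759 to 9448 against 7703 to 8622 units, -0.20 ± 0.04), P4ha2 (1878 to 1999 against 1724 to 1919 units, -0.10 ± 0.04) and Edn1 (217 to 280 against 71.5 to 99.1 units, -1.53 ± 0.11). Angptl4 (-1.52 ± 0.10) and Slc2a3 (-3.77 ± 0.20) were lower in VIM cells. Cdkn1a rose from 148 to 163 units in MYC cells to 2384 to 2395 units in VIM cells (3.92 ± 0.04), and Gdf15 rose by 2.29 ± 0.03. Krt19 was at 0 to 2.1 units in MYC cells and at 1302 to 1347 units in VIM cells. Adjusted p-values in the cells were at most 2.84e-11 for Egln3, Slc16a3, Pgk1, Pdk1, Ldha, Cdkn1a, Gdf15 and Krt19.

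Other genes went opposite ways. Trp53 was at 300 to 347 units in MYC cells and 3104 to 3210 units in VIM cells (3.26 ± 0.04), whereas it was below in every VIM tumour library. Fst was at 3449 to 3847 units in MYC cells and 194 to 224 in VIM cells (-4.10 ± 0.05), and Nqo1 at 518 to 633 against 14.5 to 34.7 units (-4.66 ± 0.19), both above in VIM tumours. Ftcd, at a few units in both lines, was lower in VIM cells (-1.03 ± 0.37, adjusted p = 0.0216). No gene was called in the same direction in both comparisons, since Ftcd was the 1 gene called in the tumours.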

How the data were processed

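RNA of 6 tumour libraries (3 VIM libraries of 3 mice, 3 MYC libraries of 2 mice) was compared, with VM tumours, normal kidney and cultured lines as levels beside them. Genotype and mouse of the tumour samples, and the line groups, were taken from the sample titles. That these samples were tumours was taken from the other sample labels and the paper, and normal kidney from the genotype label. Per the sources, stranded mRNA libraries were sequenced with paired ends, aligned to mm9 with MapSplice, profiled with Picard 1.64, sorted with SAMtools, filtered with UBU and quantified by RSEM on UCSC knownGene models. The deposited values are a signal, that is, RSEM counts which the authors scaled to an upper quartile of 1000 in each library, and they are not raw counts. Most low values were whole multiples of 1 step (94.6 to 95.4% of values under 20 reads in these 6 libraries, within 0.02 reads), and depth was estimated from that step.

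Genes above 0 in at least 2 of the 5 animals were tested (16246 of 21705) by two-sided moderated tests with a variance trend (limma 3.58.1, R 4.3.3) of the log2-transformed value + 1, after the 2 MYC libraries of 1 mouse had been averaged. A gene passed at a Benjamini-Hochberg adjusted p under 0.05 and a log2 change over 1. Whether samples of 1 group were separate tumours beyond their mouse numbers is not stated. The same test was run on the 4 cultures of each line with Dox, over genes above 0 in at least 4 libraries. The procedure was tested on simulated data. Tables and plots were made with Python 3.11.15, pandas 2.3.3 and matplotlib 3.10.9.

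Named were the engineered genes, the 12 largest changes in each direction, taken from genes that passed, whose higher group averaged 50 units or more and whose libraries did not overlap (places left free went to genes with an unadjusted p under 0.05), members of lists that passed (at most 6), and, where fewer than 2 of a list passed, its 3 members with the highest mean. The members of the comparison and the 31 gene lists were chosen with earlier results of these data known. Promoter sequences were from RefSeq (GRCm38.p6) and gene positions from NCBIM37, the assembly of mm9. In the table, 25 gene names had been turned into dates by spreadsheet software and 1 name was duplicated. Alternatives were other pseudocounts, filters, scalings and models, leaving out each library, and removal of the trend in transcript length (known for 95.9% of the genes tested), which was added after the data had been seen.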

Additional observations from a re-analysis of the deposited data

Results flagged for a closer look

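Among 54 groups of 4 or 5 values checked for a library far from the others, 5 had one, and chance flags about 1 in 20 such groups. In normal kidney, 1 library held 10.7 units of Slc16a3 against 4.18 to 5.76 in the others, and 1 held 86807 units of Napsa against 42774 to 45048. In VIM cells with Dox, 1 culture held 432 units of Myc against 360 to 371, and 1 held 3423 units of Gdf15 against 3659 to 3704. Ccnb1ip1 was at 0.542 units, a single read, in 1 culture of MYC cells and at 0 in the others. Groups of 3 tumour libraries were too small for this check.

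Some named genes had every VIM library on 1 side of MYC in the tumours and every VIM culture on the other in the cells. Of these, 5 are given here, and Edn1, Pax2 and Rims2 were among the others. The difference between the comparisons was not tested. The log2 change was -4.10 in the cells and 6.32 in the tumours for Fst, -4.94 and 1.41 for Hif3a, and -4.66 and 2.18 for Nqo1. It was 2.43 in the cells and -0.89 in the tumours for Loxl1, and 3.26 and -1.01 for Trp53.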

How the results depend on the processing

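The number of genes that passed changed with the pseudocount, the filter, the estimate of the spread, the length trend and the library left out. As reported, 1 gene was higher and 0 lower in VIM tumours, with 2379 genes at an unadjusted p under 0.05. The count of higher genes was 0 with a pseudocount of 0.1 or 10, in a fit over the 3 tumour groups, with limma voom on reads recovered from the values (2417 at an unadjusted p under 0.05) and with the length trend removed. It was 1 with a minimum mean of 10, with TMM or quantile scaling and without moderation of the variance, although that last gene was 1700003F12Rik and not Ftcd. It was 2 with no filter, 7 with the 6 libraries as separate samples, and 342 in 1 fit with normal kidney. The count of lower genes was 27 with no filter, 4 without moderation, 377 with normal kidney and 0 in the other fits to all 6 libraries. Leaving out 1 library gave 0 to 7 higher and 0 to 2 lower genes, with 7 and 2 without MYC library 2 and 0 without any other. The 7 included Ftcd, Fst and Ntsr1, and the 2 were Clic6 and Grid1, names chosen after the values were seen.

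Ftcd passed in 6 of 18 other settings. Of 2403 pairs of a named gene and a setting, 2328 kept direction and side of the threshold, 60 came to pass, 12 no longer passed, and 3 reversed, all without MYC library 1. With 1 library left out, the log2 change ran from -0.05 to 0.57 for Myc, from -0.96 to 2.23 for Car9 and from -0.34 to 0.70 for Vegfa. List medians moved by more than their spread in 24 of 248 pairs of list and setting, in 15 lists. The median of all genes ran from -0.17 to 0.02, and the cause of these shifts was not tested. In the cells, 831 genes were higher and 2684 lower as reported, and 1673 and 1779 with quantile scaling.

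No paired analysis was possible because the tumour labels carry no replicate numbers that are shared between the groups. A test of recovered reads with a count model was not run, since not every library gave whole reads, nor was mouse as a random block, which could not be estimated with 1 repeated mouse. With 5 animals, 3 residual degrees of freedom stood behind each test, and 3 reads corresponded to 2.8 to 5.65 units.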
